A study of Mus musculus with 2 samples.

Results

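Mural cells are the contractile and supporting cells that wrap blood vessels, pericytes on capillaries and vascular smooth muscle cells on larger vessels. In the scRNA-seq of dorsal mouse meninges analysed here, 133 of 5816 filtered cells carried their marker transcripts. These mural-marker cells were selected on measured values: a cell had to hold at least 1 UMI (a unique molecular identifier, 1 counted mRNA molecule) of at least 2 of Rgs5, Notch3, Pdgfrb, Kcnj8, Abcc9, Higd1b, Myh11 and Acta2. One of the genes had to be Rgs5, Notch3 or Myh11, and the cell had to hold 0 UMIs of Ptprc, the pan-leukocyte antigen CD45, and of Cdh5, the endothelial junction protein VE-cadherin. Male C57BL/6 mice (C57BL/6J, wild-type, in the methods) aged 10 weeks received either a single closed-skull hit from a controlled cortical impact device above the right inferior temporal lobe (TBI) or a Sham procedure. After 1 week the dorsal meninges, which lie away from the impact site, were pooled from 5 mice per group, and living single cells were sorted and sequenced as 1 library per group. The Sham library gave 27 mural-marker cells of 2043 filtered cells and the TBI library 106 of 3773. With 1 library per group there was no test between groups, and all intervals below cover counting error at the 95% level and not the spread between animals.

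Pericytes and vascular smooth muscle cells arise under PDGF-B signalling from endothelium to Pdgfrb on the mural cell, and Notch3 is their characteristic Notch receptor. Smooth muscle contracts through smooth muscle actin and myosin (Acta2, Myh11) and their regulators, while pericytes of the brain and its coverings are marked by Rgs5, a brake on G protein signalling, and by the ATP-sensitive potassium channel formed by Kcnj8 and Abcc9. That channel and the cGMP pathway relax mural cells, and endothelin and angiotensin receptors contract them. Mural cells also share the vascular basement membrane with endothelium.

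The mural-marker cells held 46219 UMIs in Sham and 231091 in TBI. Their median depth was similar in both libraries, 1338 UMIs per cell in Sham and 1381 in TBI, and lower than that of all filtered cells, 2764 and 2663 UMIs. No cell barcode was shared by the 2 libraries among the mural-marker cells, against 14 among all filtered cells. A gene without any UMI in these cells could still have been present at up to 64.9 CPM in Sham and 13.0 CPM in TBI, the level of 3 counts, where CPM is a gene's summed UMIs divided by all UMIs of the same cells and scaled to 1000000. The TBI values therefore rest on more molecules than the Sham values.

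The label held for most of the cells and not for all. In a graph clustering of all filtered cells, 82 of the 133 (61.7%, exact binomial interval 52.8 to 69.9%) fell into the cluster led by Rgs5, Abcc9, Notch3, Kcnj8 and Higd1b, here called mural-like. They numbered 20 of 27 cells in Sham and 62 of 106 in TBI, and are called mural-cluster cells below. Of the remainder, 35 lay in the fibroblast-like cluster led by Ptgds, Fmod, Mfap4 and Dcn, 3 in the endothelial-like cluster and 13 elsewhere. Cells that only just met the condition accounted for most of these: of 43 cells with exactly 2 of the 8 genes, 2 were in the mural-like cluster, against 80 of 90 cells with 3 or more. In 30 of the 43 the pair was Pdgfrb and Notch3, and Pdgfrb was also found in 55.3% of Sham and 52.4% of TBI cells of the fibroblast class. At least 3 of the fibroblast genes Dcn, Lum, Col1a1, Col1a2, Pdgfra and Dpt were present in 46 of the 133 cells, 7 in Sham and 39 in TBI. Values below are therefore given for all mural-marker cells and, beside them, for the mural-cluster cells.

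**Figure D1:**
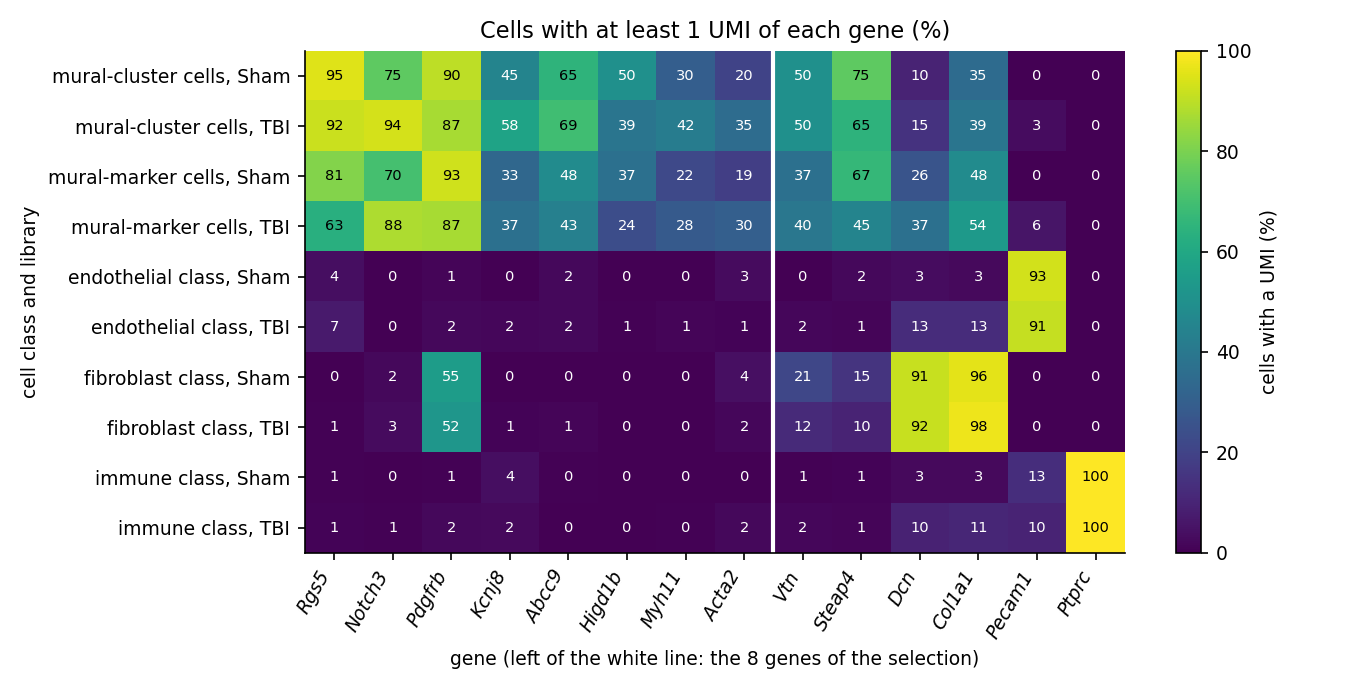
Share of cells (%) with at least 1 UMI of each gene (columns) in 5 cell classes of each library (rows), with the 8 selection genes left of the white line. Rgs5 was found in 95% and 91.9% of mural-cluster cells and in at most 7.31% of the endothelial, fibroblast and immune classes, whereas Pdgfrb was shared with the fibroblast class.

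On the other side of the threshold, 50 cells (9 in Sham, 41 in TBI) held 1 of the 8 genes, that gene being Rgs5, Notch3 or Myh11, and 0 of the 50 lay in the mural-like cluster. A further 29 cells (10 in Sham, 19 in TBI) met the marker condition but held a Ptprc or Cdh5 UMI and were left out. All 8 mural-like cluster cells outside the selection were of that last kind. Of the mural-marker cells, 0 in Sham and 5 in TBI were called doublets by simulation of merged cells.

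Mural-marker cells made up 1.32% of filtered cells in Sham (exact binomial interval 0.873 to 1.92%) and 2.81% in TBI (2.31 to 3.39%), a difference of 1.49 percentage points (Newcombe interval 0.723 to 2.20). The mural-cluster cells differed less, with 0.979% in Sham, 1.64% in TBI and a difference of 0.664 points (0.0254 to 1.24). The cells of the selection outside that cluster made up 0.343% and 1.17%. Most of the added share in TBI was therefore in cells that did not cluster with mural cells. The fibroblast class took 2.30% of Sham and 10.1% of TBI cells, and its part in the share of mural-marker cells was not tested. Endothelial cells, the class that shares the vessel wall, took 13.5% and 13.8%. Counted among Ptprc-negative cells alone, the mural-cluster share was 1.99% in Sham and 2.67% in TBI, and the interval of that difference, -0.533 to 1.69 points, included 0.

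**Figure D2:**
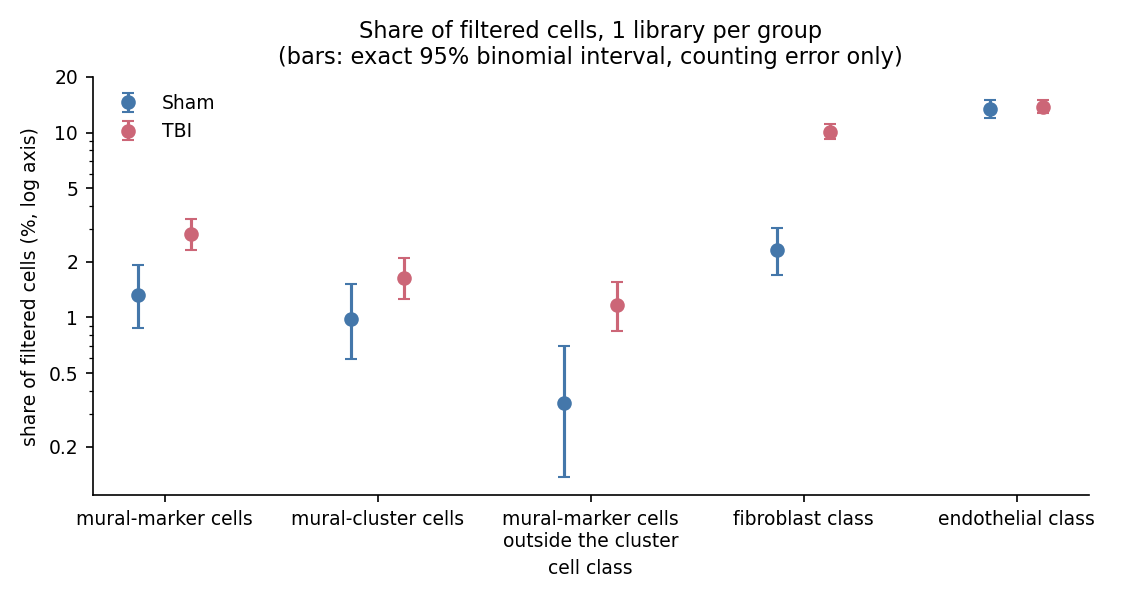
Share of filtered cells (%, log axis) in each class for the Sham and the TBI library, with exact 95% binomial intervals as bars. The TBI share is higher for mural-marker cells outside the cluster (1.17% against 0.343%) and for the fibroblast class (10.1% against 2.30%), while the endothelial class is at 13.5% and 13.8%.

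The levels of the 8 selection genes are a description, since cells entered by holding them, and Rgs5, Notch3 and Myh11 most directly. Among the receptors of the selection, Notch3, which drives mural maturation, gave 42 UMIs in 19 Sham cells and 222 UMIs in 93 TBI cells, or 909 and 961 CPM. Its log2 ratio of TBI over Sham was 0.07 (interval -0.40 to 0.59). Of cells with exactly 2 of the 8 genes, 50% in Sham and 80% in TBI held Notch3. Pdgfrb gave 111 UMIs in 25 Sham cells and 310 in 92 TBI cells, with a log2 ratio of -0.84 (-1.16 to -0.51) and of -0.67 in mural-cluster cells. Its Sham level was the higher one in both sets. With cells holding a Cdh5 UMI kept the Pdgfrb ratio was -0.21.

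Rgs5 was at 204 UMIs in 22 Sham cells and 917 UMIs in 67 TBI cells, or 4414 and 3968 CPM. Its log2 ratio was -0.16 (-0.37 to 0.07), and 0.16 in the mural-cluster cells, which Rgs5 also helped to define. Higd1b, a small hypoxia-related mitochondrial protein of pericytes, gave 20 UMIs in 10 Sham and 56 UMIs in 25 TBI cells, with a ratio of -0.86 (-1.60 to -0.02). In mural-cluster cells its interval, -1.41 to 0.18, included 0.

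The 2 subunits of the potassium channel did not move together. Kcnj8, the pore (chromosome 6, 142564837 to 142571614, minus strand of GRCm38), gave 17 UMIs in 9 Sham cells and 200 UMIs in 39 TBI cells, or 368 and 865 CPM. Per positive cell the median was 1 UMI in Sham and 3 in TBI, with 4 and 20 as the highest. Abcc9, the sulfonylurea receptor subunit encoded next to it (chromosome 6, 142587862 to 142702315, same strand), gave 42 UMIs in 13 Sham cells and 149 in 46 TBI cells. The log2 ratio was 1.20 for Kcnj8 (0.52 to 2.04) and -0.51 for Abcc9, whose interval reached up to 0.04. In mural-cluster cells the values were 1.45 and -0.24. Over the alternatives of processing the Kcnj8 ratio stayed between 1.06 and 1.89 and that of Abcc9 between -0.64 and 0.11. The share of mural-cluster cells with a Kcnj8 UMI was 45% in Sham and 58.1% in TBI. After thinning each cell to 1000 UMIs it was 75% of 12 and 58.3% of 36 cells. Kcnj8 helped to select these cells, so the shares are a description. Immune cells, which should lack mural Kcnj8 transcripts, held a Kcnj8 UMI in 3.85% of Sham and 2.48% of TBI cells at median depths of 3899 and 4119.5 UMIs.

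The mural-marker cells stood apart from all other filtered cells in more than the selection genes. Of 2805 genes with at least 20 UMIs, 771 (27.5%) were at least 2-fold higher than in other cells in both libraries, and in the mural-cluster cells 414 of 1120 (37%). These genes were read from the cells that the markers chose and are given without a test. The genes that headed the ranking were Ndufa4l2, a hypoxia-induced mitochondrial protein, with 411 CPM in Sham and 385 CPM in TBI against 1.41 and 3.14 CPM in other cells, and Steap4, a metalloreductase, with 952 and 792 CPM against 5.63 and 8.68 CPM. Gucy1b1 and Gucy1a1, the 2 chains of the nitric oxide receptor that makes cGMP, were both among the first 20, at 238 and 247 CPM for Gucy1b1 and 368 and 346 CPM for Gucy1a1. Others in the first 20 were the small GTPase Rem1, the endothelin receptor Ednra, the Notch target Heyl, the smooth muscle long non-coding RNA Carmn, Cox4i2, Vtn, the cytokine Il34, the small leucine-rich proteoglycan Aspn and the contractile genes Myl9, Tpm2, Mustn1 and Tagln. Ccl19 also reached the first 20, but its symbol stands for 2 entries of the annotation and its counts are uncertain.

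Vessel-wall matrix stood above the level of all other cells. Of genes with at least 10 UMIs, 24.7% were at least 2-fold higher than in other cells in both libraries, and all 21 basement membrane genes that reached 10 UMIs met this, as did 35 of 39 fibrillar and elastic matrix genes. With the 8 selection genes, whose excess the rule fixed, left out of the lists, so did 18 of 18 pericyte-identity genes, 13 of 18 vasoactive and cGMP genes and 23 of 27 contractile genes. Col4a1, a chain of the basement membrane collagen, was at 32 UMIs in 17 Sham cells (63.0%) and 186 UMIs in 62 TBI cells (58.5%), and was as frequent in the endothelial class, at 62.9% and 63.8%. Over the basement membrane genes the median log2 ratio of mural-cluster over endothelial cells was 1.27 in Sham and 1.47 in TBI, beside 0.43 and 0.42 over all genes. Over the fibrillar genes the median log2 ratio of mural-cluster over fibroblast cells was -0.35 and -0.30, beside 0.39 and 0.46 over all genes. In contrast 1 of 34 interferon-induced genes and 4 of 17 genes of glycolysis and hypoxia met it, again without selection genes. The fibrillar count includes the fibroblast-like cells described above, and in mural-cluster cells it was 18 of 27, beside 33.6% of all genes there.

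Within the selection, 6 Sham and 30 TBI cells held a Myh11 UMI (Myh11-positive), and 11 and 36 held none but held Kcnj8, Abcc9 or Higd1b (pericyte side). The remaining 10 and 40 were undetermined, and 4 of these in Sham and 27 in TBI lay in the fibroblast-like cluster. The Myh11-positive share was 22.2% in Sham (exact binomial interval 8.62 to 42.3%) and 28.3% in TBI (20.0 to 37.9%), a difference of 6.08 points (Newcombe interval -14.0 to 20.9). In the mural-cluster cells it was 30% and 41.9%, with a difference of 11.9 points (-12.8 to 31.7). At 27 and 106 cells a shift in this share was not detectable. The share rests on a single Myh11 UMI and counts undetermined cells in its total. It therefore does not measure the balance between pericytes and smooth muscle cells.

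The sides were cut on the same counts, so the values that follow are a description. Over both libraries the median log2 ratio of Myh11-positive over pericyte-side cells was 1.15 over the contractile list, -0.98 over the pericyte-identity list and -0.03 over all genes. In Sham the median contractile sum, over the 30 genes of the list including Acta2 and Myh11, was 130 UMIs per 10000 UMIs of a cell on the Myh11-positive side and 131 on the pericyte side. In TBI the same medians were 225 and 95.4. The median pericyte-identity sum per 10000 in Sham was 308 on the Myh11-positive side and 241 on the pericyte side. In TBI these medians were 180 and 348. In Sham this sum was thus higher on the Myh11-positive side. Over both libraries, Acta2 gave 560 UMIs in 25 of 36 Myh11-positive cells and 9 UMIs in 3 of 47 pericyte-side cells, a log2 ratio of 5.47 (4.61 to 6.68), made up of 0.76 in Sham and 6.65 in TBI. Tagln, an actin-binding protein of smooth muscle, gave 295 and 12 UMIs, a ratio of 4.15 that was -3.39 in Sham, where its UMIs were 13 in all, and 6.22 in TBI. Rgs5 gave 524 UMIs in 28 Myh11-positive cells and 528 UMIs in 45 pericyte-side cells, a ratio of -0.43 (-0.60 to -0.25). Whether the sides differed more in TBI than in Sham was not tested.

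Among genes ranked by the lower of the 2 libraries' differences, Postn, a secreted matrix protein, was the first on the Myh11-positive side, with 57 UMIs in 17 cells against 7 UMIs in 6 cells. Thbs2, Aebp1, Cdkn1c, Coch, Rspo3, Srsf5 and Ogn followed. On the pericyte side stood Il6st, the shared receptor chain of the interleukin-6 family, with 15 UMIs in 12 cells against 4 UMIs in 2 cells, the Norrin and Wnt receptor Fzd4 with 29 against 11 UMIs, Cd248, Art3, Lgals3bp, Dtx3, Nisch and Ndufa4l2 with 66 against 38 UMIs. In mural-cluster cells Postn kept the first place on the Myh11-positive side, with 47 against 7 UMIs, and was followed by Myl6, Ecm1, Anxa1, Angpt2, Ptms, Timp3 and Cnn2. There Thbs2, Aebp1, Cdkn1c and Rspo3 had 7, 12, 9 and 1 UMIs in all, so most of their UMIs lay outside the cluster. On the pericyte side Art3, Dtx3 and Ndufa4l2 led in mural-cluster cells, followed by Rhob, Mfge8, Sept4, Carmn and Col4a1, while Il6st, Fzd4, Cd248, Lgals3bp and Nisch were under the minimum of 50 UMIs. The Sham values of these genes rest on 7369 UMIs of 6 Myh11-positive cells and 14795 UMIs of 11 pericyte-side cells.

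**Figure D3:**
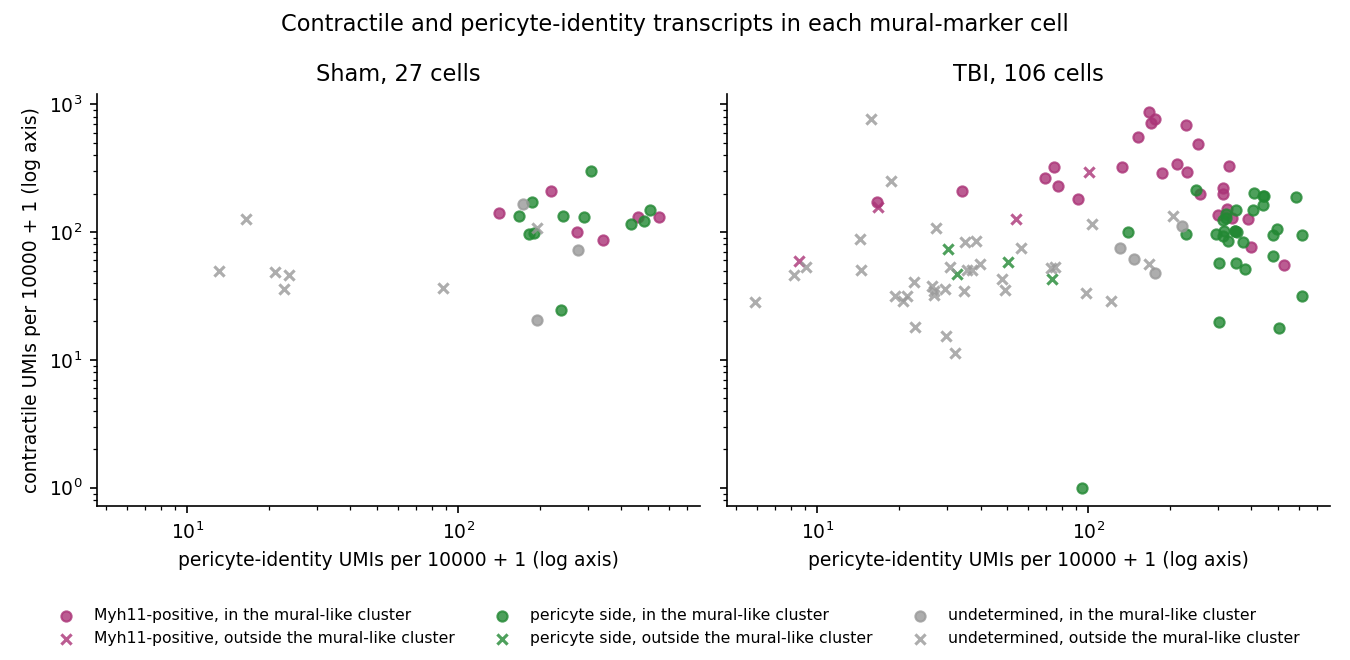
Each point is 1 mural-marker cell, with UMIs of the 27-gene pericyte-identity list per 10000 on the x axis and of the 30-gene contractile list on the y axis (both plus 1, log axes), coloured by side and marked by membership in the mural-like cluster. The contractile values of Myh11-positive cells range from 85.6 to 208 in Sham and from 54.1 to 865 in TBI, and most undetermined cells outside the cluster lie toward the left.

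Summed contractile UMIs were higher in the TBI library within the selected cells, while the median cell was alike in both. The median mural-cluster cell held 130 contractile UMIs per 10000 in Sham and 132 in TBI, with highest cells at 301 and 865, and outside the cluster the medians were 48 and 49.5. Of the 30 genes on the list, which includes Acta2 and Myh11 of the selection, 29 reached 10 UMIs, and of these 11 were at least 2-fold higher in TBI and 0 were 2-fold lower, against 14.2% of all 5602 such genes in each direction. Their median log2 ratio was 0.49, beside -0.07 over all genes. In mural-cluster cells 13 of 29 were at least 2-fold higher, against 16.4% of all genes, with a median of 0.75. Without selection genes 9 of 27 (33.3%) and, in mural-cluster cells, 11 of 27 were higher and 0 lower, with medians of 0.45 and 0.74. In the endothelial and the fibroblast class the median over the same genes was -0.35 and -0.63. Some of these genes were nearly absent there. Cnn1 and Des, for example, were in 0 cells of the fibroblast class, where the added 0.5 alone set their ratio. Both classes also held a deep Sham cell rich in Acta2, described below. It held 107 Acta2 of 16287 UMIs in the endothelial class and 119 of 16558 UMIs in the fibroblast class. The part of these Sham cells in the medians of both classes was not tested.

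Acta2, smooth muscle actin (chromosome 19, 34241090 to 34255590, minus strand), gave 19 UMIs in 5 Sham cells and 587 UMIs in 32 TBI cells. The level was 411 CPM in Sham and 2540 CPM in TBI, a log2 ratio of 2.59 (1.97 to 3.37). Of the 587 UMIs 425 lay in 4 TBI cells, whose Acta2 counts were 122, 115, 108 and 80, while the highest Sham cell held 6. These 4 mural-cluster cells held 4973 to 7532 UMIs each, whereas the deepest Sham mural-cluster cell held 2106. Each of the 4 also held 3 or 4 of the 6 fibroblast genes used above. Over all positive cells the median was 4 UMIs in Sham and 2 in TBI. The share of mural-marker cells with an Acta2 UMI was 18.5% in Sham and 30.2% in TBI (interval of the difference -8.16 to 25.6 points), and 22.2% and 26.0% after thinning to 1000 UMIs. In the endothelial class, which should lack Acta2, the shares were 2.91% and 1.15% at median depths of 1947 and 2116.5 UMIs. Because Acta2 helped to select these cells, its sum and its shares are a description. Within the selected cells the sum was higher in TBI, mostly through 4 cells, and the shares were not distinguishable. Over the alternatives of processing the Acta2 ratio ranged from 0.33 to 3.01. It was lowest with a deep Sham barcode added that the Cdh5 condition had removed, described below.

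Other smooth muscle genes followed Acta2. Tagln gave 13 UMIs in 5 Sham cells and 329 in 26 TBI cells, with a log2 ratio of 2.29, and 254 of the 329 lay in the 4 highest cells. Mustn1, a small protein of muscle and skeleton, gave 5 UMIs in 3 Sham and 155 in 27 TBI cells, with a ratio of 2.50 (1.38 to 4.28). Myh11, smooth muscle myosin heavy chain (chromosome 16, 14194535 to 14291372, minus strand), gave 8 UMIs in 6 cells and 93 UMIs in 30 cells, with a ratio of 1.14 (0.18 to 2.47). A pair of late smooth muscle genes had UMIs in the TBI cells alone. Actg2, enteric-type smooth muscle actin, gave 0 and 54 UMIs, a level at least 3.6-fold higher in TBI against the Sham limit of 3 counts, and Cnn1, calponin, gave 0 and 29 UMIs, at least 1.93-fold higher. In contrast Cald1, caldesmon, was at 1450 and 1458 CPM, and Mylk, Lmod1, Tpm1 and Des had ratios between -0.30 and 0.23. Members of the list found in many cell types also stood higher, such as Crip1 with 34 and 392 UMIs and a ratio of 1.19 (0.70 to 1.76), which turned to -0.43 (-0.71 to -0.15) with the Sham barcode described next and to -0.26 with all cells holding a Cdh5 UMI kept.

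The difference in contractile genes depended on 1 barcode that the Cdh5 condition had removed from the Sham library. That barcode held 16287 UMIs, 8 of them Cdh5 and 7 Pecam1, was placed in the endothelial-like cluster and was not called a doublet. It carried 107 Acta2, 90 Myh11, 49 Tagln, 47 Myl9 and 176 Rgs5 UMIs, and 667 UMIs of the contractile list against 449 in the 27 selected Sham cells. With that barcode added alone, the contractile median was -0.12, and 4 of 30 genes were at least 2-fold higher and 1 was 2-fold lower in TBI, beside 12.9% and 11.1% of all genes. The log2 ratio was then 0.33 for Acta2, 0.51 for Tagln, 0.97 for Mustn1 and -1.96 for Myh11. With the other 5 Sham and the 13 TBI cells that held a Cdh5 UMI kept, and that barcode left out, the contractile median was 0.49. With all of them kept it was -0.09, with 4 of 30 genes higher and 1 lower, beside 10.3% and 9.83% of all genes. The TBI cells among them included a fibroblast-like barcode of 10478 UMIs that was called a doublet. Kcnj8, with 0 UMIs in the Sham barcode, had a ratio of 1.63 with it added alone. A further Sham cell outside the selection, fibroblast-like and with 0 Myh11 UMIs, held 119 Acta2 UMIs. Without cells that held 3 or more fibroblast markers, 5 of 26 contractile genes (19.2%) were at least 2-fold higher, near the 17% of all genes, with 11.2% of all genes 2-fold lower, and the ratio of Acta2 was 2.29.

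**Figure D4:**
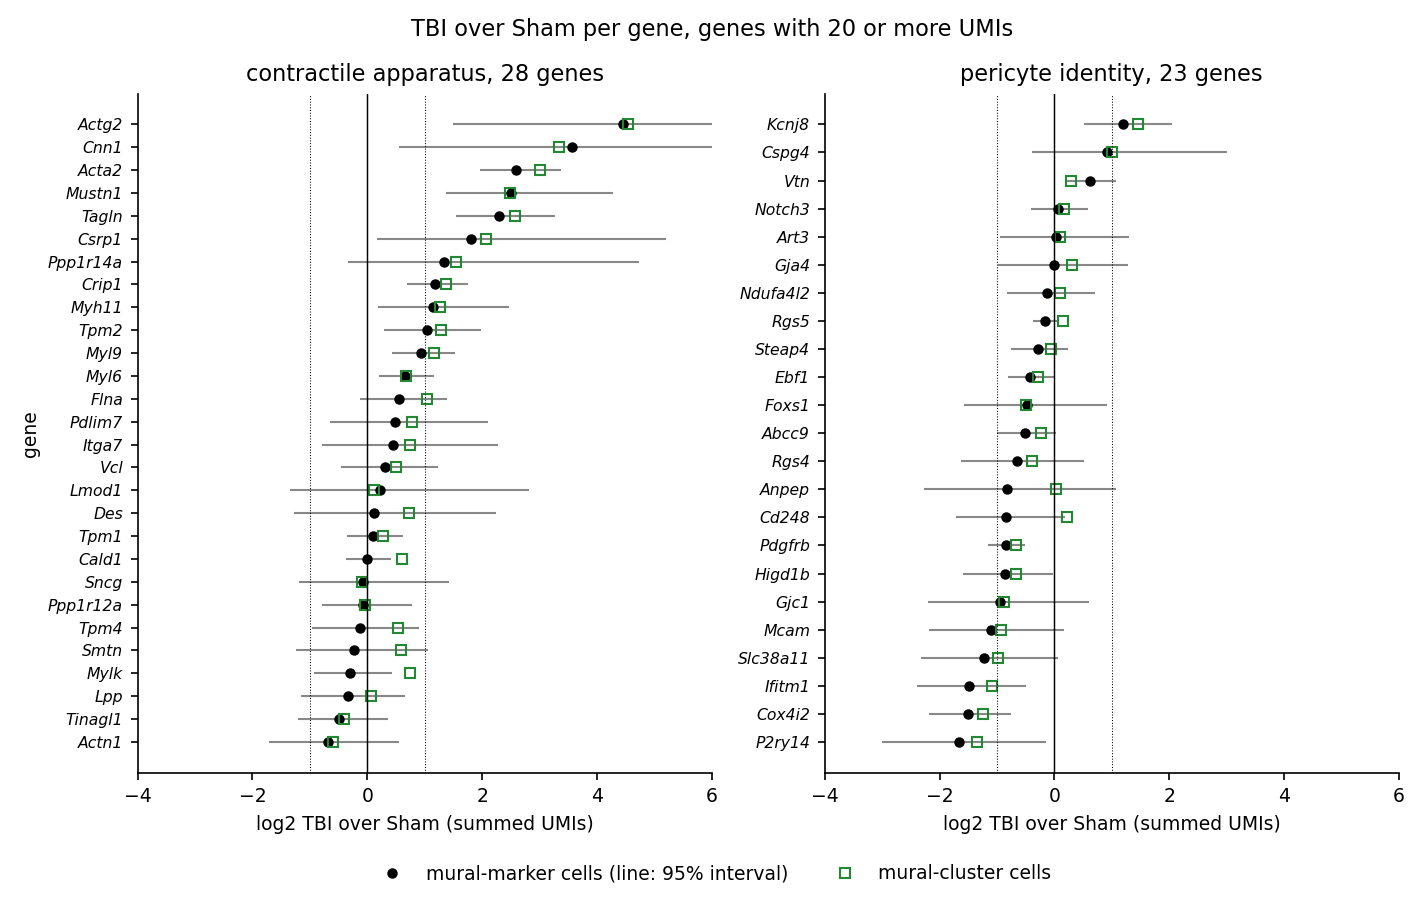
Log2 ratio of TBI over Sham of summed UMIs for genes with at least 20 UMIs on the contractile (left) and pericyte-identity (right) lists, 1 gene of the latter left out, as black points for mural-marker cells with exact 95% counting intervals (cut at -4 and 6) and green squares for mural-cluster cells; dotted lines mark 2-fold. Actg2, Cnn1, Acta2, Mustn1 and Tagln lie beyond 2-fold on the left, and Kcnj8 (1.20) is the pericyte-identity gene beyond 2-fold toward TBI on the right.

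Smooth muscle genes are known targets of serum response factor, which binds the CArG box, and the promoters of Acta2 and Myl9 are shown because both genes are among those above. The search took CCNNNNNNGG with at most 1 C or G among the 6 inner bases, a form that reads the same on both strands, in the 250 bases before each RefSeq start (GRCm38.p6). It was present in 8.59% of all 32851 promoters and in 6 of 31 promoters of the contractile list, those of Acta2, Crip1, Myl6, Myl9, Pdlim3 and Vcl. Of the 30 list genes, 26 matched the promoter table. In the strict form, with A or T at all 6 places, it was in 1.47% of the promoters searched and in 3 of the 31, those of Myl6, Myl9 and Vcl. Capitals mark the matches.
Acta2, chr19:34255438-34255467, minus strand, match 84 bases before the start: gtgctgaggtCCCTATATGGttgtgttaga
Acta2, chr19:34255388-34255417, minus strand, match 34 bases before the start: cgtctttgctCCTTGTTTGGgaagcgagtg
Myl9, chr2:156775214-156775419, plus strand, matches 161 and 99 bases before the start: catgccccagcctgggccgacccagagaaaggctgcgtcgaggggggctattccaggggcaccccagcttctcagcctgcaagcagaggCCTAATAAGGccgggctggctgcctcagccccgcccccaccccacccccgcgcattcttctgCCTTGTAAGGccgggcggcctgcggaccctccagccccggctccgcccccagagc
Both Acta2 sites lie in the first exon of the longer GENCODE model of the gene. A match of these letters is a description of the sequence and not of factor binding in these cells. These letters were not found in the same window of Rgs5, Kcnj8, Abcc9 and Notch3. Over the pericyte-identity list they were in 2 of 28 promoters (7.14%), near the 8.59% of all promoters searched. Myh11, Tagln and Actg2 were not in the promoter table.

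Genes of pericyte identity had a median below that of all genes. Without selection genes, 18 of the list reached 10 UMIs, and of these 0 were at least 2-fold higher and 5 were at least 2-fold lower (27.8%, beside 14.2% of all genes), with a median log2 ratio of -0.67. In mural-cluster cells the median over these genes was -0.33, with 0 higher and 3 lower (16.7%), beside 9.99% of all genes. With the selection genes counted, the medians over 24 genes were -0.58 and -0.26. With cells holding a Cdh5 UMI kept that median was -0.16, with 2 of 24 genes (8.33%) higher and 2 lower, below the 10.3% and 9.83% of all genes. Cox4i2, the hypoxia-tuned subunit of cytochrome c oxidase, gave 28 UMIs in 10 Sham cells and 50 UMIs in 24 TBI cells, or 606 and 216 CPM. Its log2 ratio was -1.50 (-2.18 to -0.76), and over all alternatives it stayed between -1.63 and -0.95. P2ry14, a receptor for UDP-sugars, gave 8 and 13 UMIs with a ratio of -1.65 (-3.00 to -0.14), and Ifitm1 gave 16 and 29 UMIs with -1.48 (-2.39 to -0.48). Vtn, vitronectin, ran the other way at 52 UMIs in 10 Sham and 404 UMIs in 42 TBI cells, with a ratio of 0.62 (0.22 to 1.08). Vtn was at -0.71 once cells with 3 or more fibroblast markers were left out, and 21.3% of Sham and 11.8% of TBI cells of the fibroblast class held a Vtn UMI.

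Receptors and enzymes of vessel tone had a similar median. Of 19 vasoactive and cGMP genes with at least 10 UMIs, 2 were at least 2-fold higher (10.5%) and 3 were 2-fold lower (15.8%) in TBI, near the 14.2% of all genes each way, with a median of -0.66, and -0.40 in mural-cluster cells. Ednra, the endothelin receptor that contracts mural cells, gave 21 UMIs in 13 Sham and 54 UMIs in 28 TBI cells, a log2 ratio of -0.98 (-1.71 to -0.16). Gucy1a1 gave 17 and 80 UMIs with a ratio of -0.12 (-0.86 to 0.76), and Gucy1b1 had a log2 ratio of 0.00. The channel and calcium list had a median of 0.05, and without selection genes 5 of its 16 genes (31.2%) were at least 2-fold higher. With selection genes counted, 6 of 18 (33.3%) were higher, 4 of 17 (23.5%) in mural-cluster cells beside 16.4% of all genes, and 3 of 19 (15.8%) with cells holding a Cdh5 UMI kept beside 10.3%. Without cells that held 3 or more fibroblast markers it was 2 of 16 (12.5%), below the 17% of all genes, with a median of -0.24. Among the 6 was Cavin1, a coat protein of caveolae with 4 and 83 UMIs. Cavin1 was at -0.85 with cells holding a Cdh5 UMI kept.

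Signalling lists had medians nearer to that of all genes in the mural-marker cells. The Notch list had a median of -0.12 over 13 genes, with 0 genes 2-fold higher and 2 genes (15.4%) 2-fold lower, the latter near the 14.2% of all genes each way. Heyl, a Notch target, gave 7 and 49 UMIs with a ratio of 0.40 (-0.66 to 1.87), and Adam10, the protease that releases Notch, gave 11 and 10 UMIs with -2.45 (-3.85 to -1.08). The list of PDGF, angiopoietin and VEGF genes had a median of 0.11 over 12 genes, and -0.26 in mural-cluster cells. Without cells that held 3 or more fibroblast markers it was 0.89, with 4 of 8 genes 2-fold higher and 0 lower, beside 17% and 11.2% of all genes. Angpt2, the Tie2 ligand released by remodelling vessels, gave 7 UMIs in 4 Sham and 91 UMIs in 32 TBI cells, a log2 ratio of 1.29 (0.28 to 2.73) that was 2.28 in mural-cluster cells. Angpt2 was also found in 25.5% of Sham and 24.6% of TBI cells of the fibroblast class. The TGF-beta and BMP list had a median of 0.17 over 19 genes, with 3 genes (15.8%) 2-fold higher, near the share of all genes. In mural-cluster cells 4 of 13 (30.8%) were higher, beside 16.4% of all genes, with a median of 0.05. Without the cells with 3 or more fibroblast markers it was 3 of 11 (27.3%), beside 17%, with a median of 0.40. With cells holding a Cdh5 UMI kept it was 2 of 21 (9.52%), beside 10.3%, with a median of -0.23. The list's median was -0.30 with the deep Sham barcode added alone, and 0.04 with the other cells holding a Cdh5 UMI kept. Id3, its most abundant gene and a BMP target, was at 65 and 367 UMIs with a ratio of 0.17 (-0.21 to 0.58).

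Mural transcription factors had a median of -0.35 over 19 genes. Of these 2 were 2-fold higher (10.5%) and 3 lower (15.8%), near the 14.2% of all genes each way. In mural-cluster cells the median was -0.11. With cells holding a Cdh5 UMI kept it was 0.12. There 3 of 20 genes (15%) were higher and 3 lower (15%), beside 10.3% and 9.83% of all genes. Ebf1, a factor of the pericyte lineage, gave 65 and 244 UMIs with a ratio of -0.42 (-0.81 to 0.00). Mef2a, a muscle transcription factor, gave 22 UMIs in 11 Sham and 38 UMIs in 29 TBI cells, with a ratio of -1.55 (-2.33 to -0.71) that stayed between -1.73 and -0.99 over the alternatives. Klf2, a flow-responsive factor, gave 3 and 58 UMIs with a ratio of 1.74 (0.33 to 4.27), and was at -1.06 with cells holding a Cdh5 UMI kept.

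Matrix genes had medians of 0.31 over 21 basement membrane genes, 1 of them 2-fold higher and 1 lower, and 0.20 over 39 fibrillar and elastic matrix genes. Of the fibrillar genes 9 (23.1%) were 2-fold higher and 0 lower, beside 14.2% of all genes each way. In mural-cluster cells the medians were 0.02 and 0.17, with 6 of 27 fibrillar genes (22.2%) higher and 0 lower, beside 16.4% and 9.99%. Without cells that held 3 or more fibroblast markers 2 of 26 fibrillar genes (7.69%) were higher, below the 17% of all genes, with a median of -0.20. Col1a1, a fibrillar collagen, gave 93 and 754 UMIs with a ratio of 0.69 (0.38 to 1.02), and 318 of the TBI UMIs lay in 1 cell. Over the alternatives of processing the Col1a1 ratio ranged from -1.46 to 1.13, so its direction was not stable. Dcn, decorin, gave 66 UMIs in 7 Sham and 642 UMIs in 39 TBI cells. The 12 fibroblast markers together were at 22934 CPM in Sham and 22485 CPM in TBI, most abundantly Mgp, with 9 and 11 of the 12 genes present. In mural-cluster cells they were at 17324 and 15877 CPM, with Mgp again the most abundant and 5 and 9 genes present. Their part in the matrix values was not tested. The adhesion list had a median of -0.33 over 18 genes, 1 of them 2-fold higher (5.56%) and 4 lower (22.2%), beside 14.2% of all genes each way. The counts ran the other way in mural-cluster cells, 3 of 12 higher (25%) and 0 lower, beside 16.4% and 9.99% of all genes, with a median of 0.04.

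The list of interferon-induced genes had a median above that of all genes in the selected cells. Of 34 genes with at least 10 UMIs 12 were at least 2-fold higher (35.3%) and 4 were 2-fold lower (11.8%), beside 14.2% of all genes each way, with a median log2 ratio of 0.68. In mural-cluster cells 7 of 20 were higher and 1 lower, beside 16.4% and 9.99% of all genes, with a median of 0.61. Ifitm3, a membrane protein that restricts viral entry, gave 35 UMIs in 18 Sham cells and 387 UMIs in 66 TBI cells, with a ratio of 1.13 (0.64 to 1.69) and a range of 0.82 to 1.23 over the alternatives. Isg15, a ubiquitin-like interferon product, gave 1 UMI in 1 Sham cell and 43 UMIs in 16 TBI cells, a log2 ratio of 2.54 with the wide interval of 0.55 to 8.44. Ifit3 was at 0 UMIs in Sham and 27 in TBI. With the deep Sham barcode added alone the interferon median was 0.32, with the other cells holding a Cdh5 UMI 0.15, and with all of them -0.03, when 6 of 40 genes were higher (15%) and 2 lower (5%), beside 10.3% and 9.83% of all genes. The 10 immune markers moved with these genes, from 519 CPM in Sham to 1904 CPM in TBI in the mural-marker cells, with 7 and 9 of the 10 genes present and Cd79a and Cd3e at 0 in Sham. Their most abundant gene in TBI was Cd74, with 257 of its 305 UMIs in 1 cell. In mural-cluster cells the immune markers were at 682 CPM in Sham, from 17 UMIs of which 6 were Lyz2 in 1 cell, and at 395 CPM in TBI, from 40 UMIs. The part of immune RNA in the interferon values was not tested.

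Among the mural-marker cells, dissociation-induced and early genes had the highest median of the 16 functional lists, 0.86 over 24 genes. Of these 9 were 2-fold higher (37.5%) and 0 lower, beside 14.2% of all genes each way. In mural-cluster cells the early-gene median was 0.44, under the 0.75 of the contractile and the 0.61 of the interferon list. There 2 of 16 early genes (12.5%) were 2-fold higher, which is below the 16.4% of all genes. The median was -0.29 with the deep Sham barcode added alone, 0.23 with the other cells holding a Cdh5 UMI kept, and -0.15 with all of them. Egr1, an immediate-early transcription factor, was at 0 UMIs in the 27 Sham cells and at 66 UMIs in 19 TBI cells, which is at least 4.4-fold higher against the limit of 3 counts. In mural-cluster cells Egr1 gave 0 and 12 UMIs, so most of its molecules lay outside that cluster. Junb, a partner of the early response, gave 0 and 36 UMIs and Fos 0 and 24 UMIs. Junb was at -0.089 with the deep Sham barcode added alone, and Fos at -0.64 with all cells holding a Cdh5 UMI kept. These genes are also induced by tissue handling, and each group was processed as 1 library, so handling and injury cannot be told apart.

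Markers of other cell types were low but unequal between the libraries. The 12 endothelial markers were at 216 CPM in Sham, with 4 genes present, and at 844 CPM in TBI, with 11 present, Emcn being the most abundant in both. Pecam1, Kdr and Cldn5 were at 0 in Sham, and Cdh5 was at 0 in both by the selection. In mural-cluster cells they were at 281 and 582 CPM. Schwann markers were at 151 and 597 CPM, with Pmp22 the most abundant. Hemoglobin markers went the other way, at 1623 CPM in Sham and 476 CPM in TBI, led by Hbb-bs. Ttr, the secreted transthyretin of choroid plexus, was at 6 and 64 UMIs, the other choroid plexus markers were nearly absent, and pineal and neural markers came to at most 1 UMI in a library. Mast cell markers gave 20 UMIs in Sham, 11 of them Mcpt4 in 1 cell, and 21 in TBI, and of the skeletal muscle markers Des alone was present. The part of these transcripts in the ratios was not tested.

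Across all genes with at least 20 UMIs in the mural-marker cells, 371 of 2813 (13.2%) were at least 2-fold higher in TBI and 222 (7.89%) at least 2-fold lower. The counting interval left out 0 for 153 and 102 of these. In mural-cluster cells 148 of 1128 (13.1%) were higher and 62 (5.5%) lower. The highest ratios among genes with at least 50 UMIs not held mainly by 1 cell were those of Cldn11, a tight-junction protein of meningeal barrier cells with 1 and 57 UMIs, then Acta2, Mustn1, Cyp1b1 with 2 and 65 UMIs, Foxp1, Clic1, Ccn2 with 3 and 79 UMIs, Gabarapl2, Micos10 and the Wnt antagonist Sfrp4. The lowest were those of Matn4, Mef2a, Nfat5, Cox4i2, Fat1, Olfml2a, Rbms1, H19, Luc7l3 and Dlc1. Without cells that held 3 or more fibroblast markers the ratio turned to -0.34 for Cldn11, 0.88 for Matn4 and 0.51 for H19, each with an interval that included 0. Of the lowest Olfml2a, a secreted matrix protein, gave 33 UMIs in 10 Sham and 64 UMIs in 38 TBI cells, with a ratio of -1.38 (-1.99 to -0.71). Dlc1, a brake on RhoA, gave 24 UMIs in 13 and 54 UMIs in 39 cells, with a ratio of -1.17 (-1.87 to -0.39). Cxcl12, the most changed chemokine of its list, gave 23 UMIs in 10 Sham and 317 UMIs in 52 TBI cells, with a ratio of 1.43 (0.85 to 2.14) that was 1.69 in mural-cluster cells and 0.27 with cells holding a Cdh5 UMI kept. In mural-cluster cells the ranking also held Cnn3, an acidic calponin, with 2 and 49 UMIs, Sqstm1, an autophagy adaptor, with 4 and 58 UMIs, and the proteases Prss23 and Ctsl, with 12 and 147 and with 5 and 61 UMIs. Among its lowest were Rbms1, with 25 and 31 UMIs, Utrn, the dystrophin relative utrophin, with 21 and 37 UMIs, and Gm42418, an annotation that overlaps ribosomal RNA, with 1460 and 2491 UMIs and a ratio of -1.25 (-1.35 to -1.16). Endothelial cells also carried Cxcl12, in 55.6% of Sham and 50.6% of TBI cells.

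**Figure D5:**
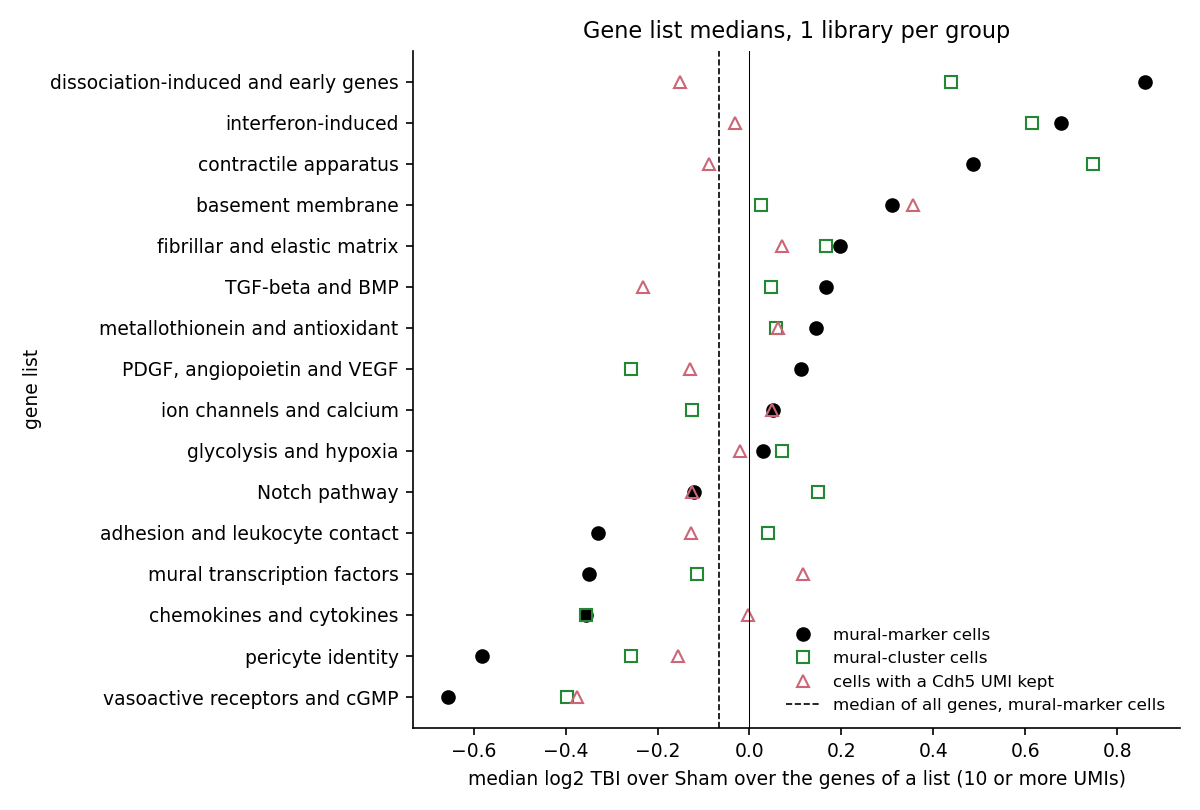
Median log2 ratio of TBI over Sham over the genes of each list with at least 10 UMIs (x axis), for mural-marker cells (circles), mural-cluster cells (squares) and the selection with Cdh5-positive cells kept (triangles), with the median of all genes dashed. The 3 highest medians of the mural-marker cells, 0.86, 0.68 and 0.49, fall to -0.15, -0.03 and -0.09 when Cdh5-positive cells are kept.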

How the data were processed

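The authors prepared 2 scRNA-seq libraries (10x Genomics 3' chemistry) and deposited raw UMI counts per gene and cell barcode, 2699 barcodes in Sham and 4349 in TBI, with 9527334 and 15011079 UMIs. Reads were aligned to mm10 (GRCm38). The submitters' processing notes name Cell Ranger 2.1.1, Seurat 3.9.9 and DESeq2 1.30.0, the file header names another Cell Ranger release (3.1.0), and no source used here names the annotation release. The labels give the age both as 10 weeks and as 10 to 12 weeks.

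Barcodes with 150 to 5000 genes, at most 20% mitochondrial and at most 5% hemoglobin UMIs were kept (2043 and 3773 cells) and the marker conditions applied. Doublets, scored against 2 simulated pairs per cell with 40 neighbours, were kept. Clustering used 2000 variable genes, 20 principal components, 20 neighbours and Leiden resolution 0.8. The UMIs of the selected cells were added up in each library, and log2 ratios were taken of these sums, scaled by their totals, with 0.5 added. Intervals are exact binomial ones for shares and ratios and Newcombe's for differences, at 95%, and cover counting error only. Ratios were counted for genes with at least 20 UMIs and list medians for genes with at least 10. Since each group is 1 library pooled from 5 mice, no test, p-value or replicate check was possible, and cells were not treated as replicates. Endothelial cells held at least 3 endothelial markers and no Ptprc, fibroblasts at least 3 of 6 fibroblast markers and neither Ptprc nor Cdh5, and immune cells Ptprc. For shares of cells with a UMI at equal depth, cells were thinned to 1000 UMIs and shallower cells left out, which kept 18 of 27 Sham and 73 of 106 TBI mural-marker cells.

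The cells and the gene lists were chosen with earlier results of these data known. Named genes were the selection genes, up to 4 genes per list by most UMIs or largest ratio, the 10 genes with the highest and lowest ratios among those with at least 50 UMIs and at most 25% of them in 1 cell, the 20 highest over other cells and the 8 highest on each side. The rankings were made in the mural-marker and in the mural-cluster cells. Mylk, Lmod1 and Tpm1 were named after their values were seen. Of the genes that the rule names, 1 is not reported here. Gene positions are from GENCODE vM21. The scripts were tested on simulated data. Python 3.11.15, numpy 2.4.6, scipy 1.17.1, pandas 2.3.3, scanpy 1.11.5, scikit-learn 1.9.0, leidenalg 0.10.2 and matplotlib 3.10.9 were used.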

Additional observations from a re-analysis of the deposited data

Results flagged for a closer look

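Barcodes that the filters on genes, mitochondrial UMIs and hemoglobin had removed were searched for the same marker conditions, because no comparison uses them. In TBI 6 of 576 removed barcodes met the conditions (1.04%), 1 of them over the hemoglobin limit, and in Sham 1 of 656 (0.152%). These barcodes entered none of the values above.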

How the results depend on the processing

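No paired analysis was possible because each group is 1 library, so a replicate block could not be fitted and no replicate could be left out. The higher share of mural-marker cells in TBI kept its direction, with an interval above 0, in all 12 alternatives, at 0.664 (mural-cluster cells) to 1.88 points. The mural-cluster share of Ptprc-negative cells alone, at 0.679 points, had an interval that included 0. For the Myh11-positive share the difference lay between 2.84 and 11.9 points with an interval that included 0 in each. Keeping cells with a Cdh5 UMI, all of them, the deepest Sham one alone or all but that one, and taking the mural-cluster cells alone were alternatives chosen after seeing the data. Counts of genes at least 2-fold higher and lower in TBI were 206 and 112 with 3 marker genes required, 150 and 62 without cells holding 3 or more fibroblast markers, 103 and 29 with at least 50 UMIs, 1688 and 2900 with no minimum, and 148 and 62 in mural-cluster cells. The count of genes higher than in other cells was 466, 371, 287 and 414 with 3 marker genes, without fibroblast-marker cells, with at least 50 UMIs and in mural-cluster cells. Fewer cells or another minimum left fewer or more genes to test. With 3 marker genes the fibrillar matrix median was -0.22, and the ratios of Csf1 and Foxd1 were -0.0037 and 1.76. Without fibroblast-marker cells the fibrillar median was -0.20 and the Notch median 0.31, and the ratios were -0.34 for Cldn11, Ifi27l2a and Mfap5, -1.93 for Coch, 0.51 for H19 and 0.88 for Matn4. As means over cells the Notch and fibrillar medians were 0.56 and 0.43, and Coch was at -0.51. In mural-cluster cells Foxd1 was at 1.44, Gsta4 and Ifi27l2a at -0.44 and Tnc at -1.29. With all cells holding a Cdh5 UMI kept, the contractile, interferon and early-gene medians were -0.088, -0.032 and -0.15, and the ratios of Cavin1, Crip1, Fbln5, Fos, Id1, Klf2 and Myh11 were -0.85, -0.26, -1.15, -0.64, -0.55, -1.06 and -1.54. With the deepest Sham one added alone, the contractile, early-gene and fibrillar medians were -0.12, -0.29 and 0.41, and Cavin1, Crip1, Fbln5, Id1, Junb, Klf2 and Myh11 were at -0.88, -0.43, -0.30, -0.73, -0.089, -1.49 and -1.96. With all but that one kept, the contractile median was 0.49, the fibrillar and early-gene medians were -0.12 and 0.23, and Fbln5 and Klf2 were at -0.95 and -0.11. The cause of the other reversals was not tested. Beside these, 1663 values of single genes stayed within their counting error, and 156 moved by more without a called value changing sign. A further 238 values stayed within their limit. That limit was counting error for shares, an interval over the genes of the list for list medians, and a fixed fold for gene counts. With 46219 UMIs in the Sham cells, a gene at 0 UMIs there could still have been present at up to 64.9 CPM.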

Other observations

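Genes of glycolysis and hypoxia went both ways, with a median log2 ratio of 0.03 over 18 genes, and 0.07 in mural-cluster cells. Of the 18 genes 2 were at least 2-fold higher in TBI (11.1%) and 3 lower (16.7%), near the 14.2% of all genes each way. The metallothionein and antioxidant list had a median of 0.14 over 19 genes. Of these 6 were at least 2-fold higher (31.6%) and 1 lower (5.26%), beside 14.2% of all genes each way. In mural-cluster cells 4 of 16 (25%) were higher, beside 16.4% of all genes. Without cells holding 3 or more fibroblast markers 3 of 14 (21.4%) were higher and 2 (14.3%) lower, beside 17% and 11.2%. With cells holding a Cdh5 UMI kept 3 of 21 (14.3%) were higher, beside 10.3%. With all of those but the deepest Sham one kept it was 2 of 21 (9.52%), beside 11.8%. Sod3, the extracellular superoxide dismutase of the vessel wall, gave 9 UMIs in Sham and 118 in TBI. Mt1, a metal-binding protein, gave 3 and 75 UMIs, with a ratio of 2.11 in the mural-marker cells and 0.05 in the mural-cluster cells, so its difference lay in cells outside the cluster. Gpx3, a secreted glutathione peroxidase, gave 117 and 346 UMIs and a ratio of -0.76, which was 0.78 in the mural-cluster cells. The chemokine and cytokine list had a median of -0.36 over 15 genes, 2 of them higher (13.3%) and 3 lower (20%), beside 14.2% of all genes each way. Serping1, the inhibitor of the first complement component, gave 66 and 324 UMIs and a ratio of -0.04.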
